A study of Mus musculus with 8 samples.

Results

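The cytosolic ribosome is built from ribosomal RNA and a large set of ribosomal proteins, named Rps for the small subunit and Rpl or Rplp for the large one. Most of these proteins are needed in equal numbers, and many of their mRNAs begin with a run of pyrimidines at the 5′ end, the terminal oligopyrimidine (TOP) motif, through which mTORC1 and the RNA-binding protein LARP1 control their translation. Ribosomal protein genes are also known for many processed pseudogenes, so that a short read from their coding sequence often maps to more than 1 place in the genome. The genes described here were chosen by symbol alone, as those that start with Rps, Rpl or Rplp and a number (or are called Rpsa), without the Rps6k kinases. The rule found 44 genes among the 10601 of the study's results table, and no measured value was used in it. That table is limited to genes that reached 10 RPM (reads per 1 M reads) in some mouse, so genes such as Rpl3, Rps6 and Rpsa, which it does not list, were not analysed here. Of the 44 genes, 41 reached 10 RPM in some mouse of each group, and 3 (Rpl22l1, Rpl35a and Rpl37) reached it in bigenic mice only. Among the 44, Rps19bp1 encodes a protein that binds RPS19 and is not itself a part of the ribosome. Rpl7l1 is a factor of ribosome assembly. Both stay in the counts.

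The RNA was that of the right cerebral cortex of C57BL/6 mice, 4 of them bigenic and 4 nontransgenic. Bigenic mice (Camk2a-tTa / deltaNLS-hTDP-43) carry a tetracycline transactivator under the Camk2α promoter, which is active mainly in excitatory neurons of the forebrain, and a human TDP-43 with a defective nuclear localization signal (ΔNLS-hTDP-43) that this transactivator switches on. Both groups were fed doxycycline, which keeps the transgene off, until 28 days of age, and RNA was taken 10 days after it was withdrawn. The nontransgenic mice came from parents heterozygous for both transgenes, and 3 of the 4 mice in each group were male. Values are normalized counts, that is reads on a gene's exons divided by a factor for each mouse. The comparison asks which ribosomal protein mRNAs differ in abundance between bigenic and nontransgenic mice. No mice with only the transactivator or only the ΔNLS-hTDP-43 transgene were sequenced, so the part of each transgene was not tested. The paper also describes less endogenous mouse TDP-43 in nuclei of bigenic mice, and slightly more total nuclear TDP-43. In bulk cortex, a change in the number of cells of a type cannot be told apart from a change in the RNA of each cell.

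The libraries differed in depth. An estimated 15.2, 10.6, 23.5 and 31.9 M reads lay on genes in the bigenic libraries, and 22.5, 20.2, 23.3 and 29.0 M in those of nontransgenic mice, where mice are numbered only by the order of their columns. The second bigenic library was therefore the shallowest, and it also stood apart from its group in the genes described here. It lay more than 1 log2 unit from the mean of the other 3 bigenic mice in 8 of the 44 genes (18.2%), against 3.46% of all genes tested. Among those 8 genes it was the lower in 7 and the higher in 1, so the log2 fold change without it is also given for each named gene that it moved by 1.5 times or more. The lowest value of any ribosomal protein gene, Rpl35a in this library, still rested on an estimated 36 reads.

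Ribosomal protein mRNAs did not move as 1 block in the bigenic cortex. In limma's fit across 10588 genes, at an adjusted p-value (Benjamini-Hochberg) below 0.05, 12 of the 44 genes were higher in bigenic mice, 4 were lower and 28 did not pass. The share of higher genes was 27.3%, where 20.5% of all genes tested were higher, and the share of lower genes was 9.09%, where 15.4% of all genes were lower. At an unadjusted p below 0.05, 19 of the 44 passed, as did 4940 of the 10588 genes tested. The median log2 fold change of the 44 genes was 0.25 and that of all genes tested was 0.03. Log2 fold changes were above 0 in 32 of the 44 genes and in 5643 of the 10588. The 4 bigenic values lay above all 4 nontransgenic values in 11 genes (25.0%, against 22.3% of all genes tested) and below them in 3 (6.82%, against 16.7%). Together that is 31.8% of the 44 genes, and the same held for 39.0% of all genes tested. Genes of both directions occurred in both subunits, with 5 higher and 2 lower of 18 small subunit symbols (median 0.24), and 7 higher and 2 lower of 26 large subunit symbols (median 0.25). The groups were separate in 22.2% of the small subunit and 38.5% of the large subunit symbols, and that difference was not tested.

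**Figure D1:**
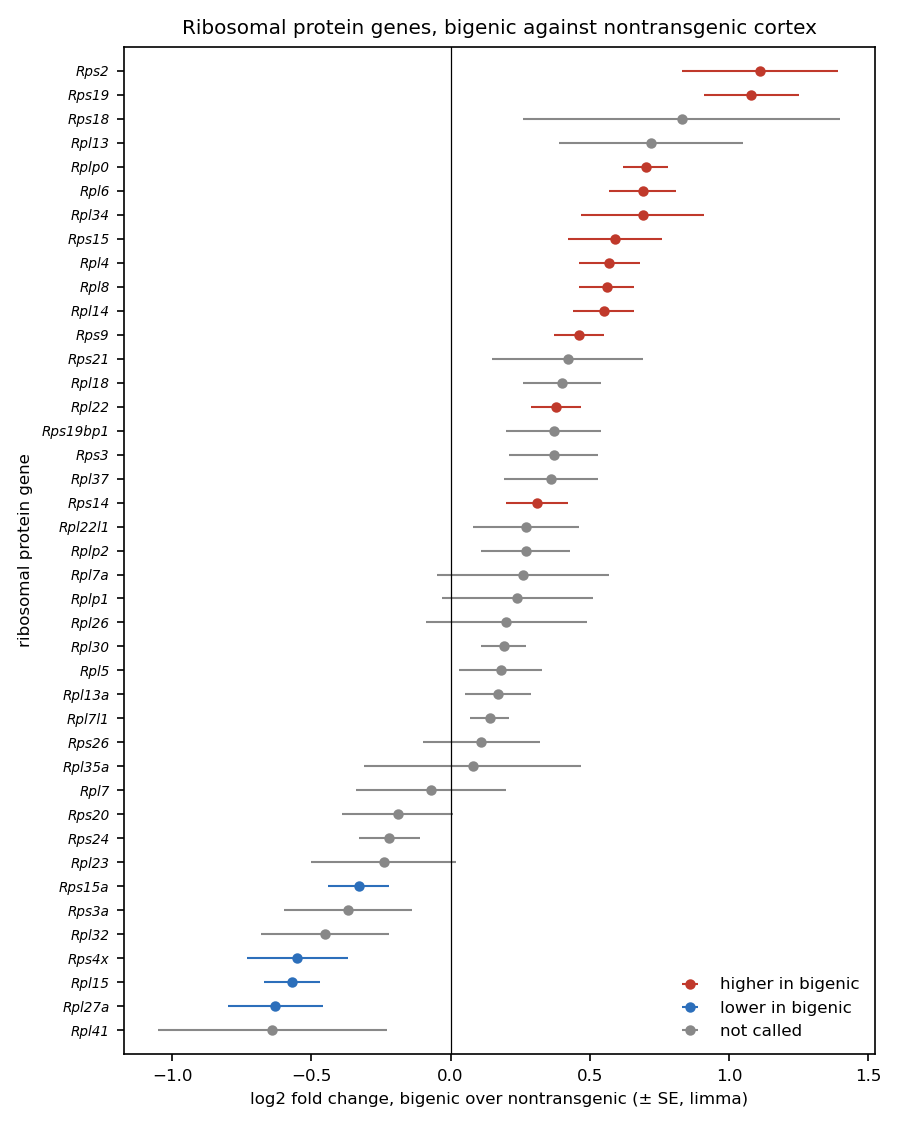
Log2 fold change (bigenic over nontransgenic, ± SE from limma, n = 4 and 4 mice) on the horizontal axis for 41 of the 44 ribosomal protein genes on the vertical axis, coloured by call at an adjusted p-value of 0.05. The values run from -0.64 (Rpl41, not called, and -0.16 without the second bigenic mouse) to 1.11 (Rps2), with 12 genes called higher and 4 called lower.

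The sequence around the transcription start is shown for the 14 called genes that have a RefSeq window, because the TOP motif is the feature most ribosomal protein mRNAs share and genes of both directions can be compared by it. Each line gives 30 bases from RefSeq on the GRCm38.p6 build, 15 before and 15 from the annotated start, 5′ to 3′ on the gene's own strand, with the longest unbroken run of C and T in capitals. The first 4 genes were lower in bigenic mice and the other 10 were higher.
Rpl27a, chr7:109519180-109519209, + strand: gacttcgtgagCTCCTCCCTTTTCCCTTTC
Rpl15, chr14:18270972-18271001, - strand: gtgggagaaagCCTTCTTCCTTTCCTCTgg
Rps15a, chr7:118116133-118116162, - strand: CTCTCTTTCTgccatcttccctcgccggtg
Rps4x, chrX:102189377-102189406, - strand: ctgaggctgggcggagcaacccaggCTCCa
Rpl34, chr3:130730323-130730352, - strand: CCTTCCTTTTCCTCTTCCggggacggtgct
Rpl14, chr9:120571502-120571531, + strand: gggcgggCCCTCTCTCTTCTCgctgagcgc
Rpl4, chr9:64173372-64173401, + strand: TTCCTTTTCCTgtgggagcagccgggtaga
Rps9, chr7:3704026-3704055, + strand: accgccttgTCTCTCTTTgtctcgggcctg
Rps2, chr17:24720048-24720077, + strand: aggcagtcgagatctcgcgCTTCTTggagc
Rps19, chr7:24884898-24884927, + strand: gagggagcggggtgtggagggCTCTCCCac
Rplp0, chr5:115559452-115559481, + strand: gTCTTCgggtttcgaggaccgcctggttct
Rpl6, chr5:121204486-121204515, + strand: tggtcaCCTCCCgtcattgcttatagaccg
Rps15, chr10:80292416-80292445, + strand: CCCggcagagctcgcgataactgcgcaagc
Rpl22, chr4:152324421-152324450, + strand: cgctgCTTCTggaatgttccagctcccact

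A run of at least 8 pyrimidines occurred in the windows of 17 of the 33 ribosomal protein genes with a RefSeq window (51.5%). It occurred in 13.9% of the 27025 genes of the same table and in 15.4% of the 7448 tested genes it holds. Only the gene's own strand was searched, and for genes with several annotated starts the start with the longest run was used. Such a run was present in genes of both directions, in 3 of 4 genes called lower, in 4 of 10 called higher and in 10 of 19 not called. The median log2 fold change stood at 0.27 for the 17 genes with the run and 0.37 in the 16 without it. A run of letters is a description of these windows and not a shown TOP motif, since the true start may lie elsewhere.

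Among the small subunit genes, Rps2 and Rps19 rose the most. Rps2 (mm9 chromosome 17, 24857055 to 24858874, + strand), whose protein lies near the channel through which mRNA enters, had 274, 685, 612 and 507 normalized counts in bigenic mice and 340, 195, 192 and 210 in nontransgenic mice. The first bigenic mouse lay below the first nontransgenic mouse, so the groups overlapped, and the other 3 bigenic mice lay above all nontransgenic mice. The log2 fold change was 1.11 ± 0.28 (SE, adjusted p = 0.0137). Rps19 (chromosome 7, 25669390 to 25674825, + strand), needed for the maturation of 18S ribosomal RNA and the gene most often mutated in Diamond-Blackfan anaemia, had 933, 798, 566 and 615 normalized counts in bigenic mice and 279, 335, 341 and 401 in nontransgenic mice. Every bigenic value was above every nontransgenic one, and the mean was 728 ± 169 (SD, n = 4) against 339 ± 49.9, a log2 fold change of 1.08 ± 0.17 (SE, adjusted p = 0.00113).

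Another 3 small subunit genes were higher by smaller amounts. Rps9 (chromosome 7, 3655595 to 3658503, + strand), which also lines the mRNA entry channel, had 946, 1028, 794 and 829 normalized counts in bigenic mice and 637, 668, 649 and 654 in nontransgenic mice. Its groups did not overlap, its nontransgenic values varied little, and the log2 fold change was 0.46 ± 0.09 (SE, adjusted p = 0.00464). Rps15 (chromosome 10, 79755198 to 79756859, + strand), a protein of the head of the subunit, had 1648, 2821, 2743 and 2742 normalized counts in bigenic mice and 1633, 1645, 1845 and 1375 in nontransgenic mice. The first bigenic mouse sat within the nontransgenic range and the other 3 far above it, for a log2 fold change of 0.59 ± 0.17 (SE, adjusted p = 0.0234). Rps14 (chromosome 18, 60934164 to 60938200, + strand), whose loss contributes to the anaemia of 5q deletions in human, had a mean of 1313 ± 189 (SD, n = 4) against 1054 ± 66.7 and a log2 fold change of 0.31 ± 0.11 (SE, adjusted p = 0.0435). Leaving out 1 mouse ended the call for Rps15 in 5 of the 8 omissions and for Rps14 in 6.

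The lower small subunit genes were Rps4x and Rps15a. Rps4x (chromosome X, 99380280 to 99384733, - strand), the X-linked gene for a protein of the subunit's body, had 163, 128, 219 and 185 normalized counts in bigenic mice and 234, 237, 319 and 221 in nontransgenic mice. The groups did not overlap, but the highest bigenic value lay just under the lowest nontransgenic one, and the log2 fold change was -0.55 ± 0.18 (SE, adjusted p = 0.0403). Rps15a (chromosome 7, 125249342 to 125259700, - strand) had 1456, 1202, 1318 and 1171 normalized counts in bigenic mice and 1353, 1598, 1781 and 1771 in nontransgenic mice. The first mice of the 2 groups overlapped, and the log2 fold change was -0.33 ± 0.11 (SE, adjusted p = 0.0383). Both calls were lost in 5 of the 8 omissions of a mouse.

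In the large subunit, the ribosomal stalk was described first. The stalk recruits elongation factors and is made of Rplp0 at its base with Rplp1 and Rplp2 bound to it. Rplp0 (chromosome 5, 116009476 to 116013736, + strand) had 1714, 1636, 1606 and 1733 normalized counts in bigenic mice and 982, 1094, 1135 and 926 in nontransgenic mice. The values of each group lay close together and the groups far apart, with a log2 fold change of 0.70 ± 0.08 (SE, adjusted p = 0.000299). Rplp1 had 601, 312, 816 and 853 normalized counts in bigenic mice and 482, 528, 534 and 500 in nontransgenic mice, and was not called (log2 fold change 0.24, adjusted p = 0.519). Rplp2 had 907, 848, 1313 and 1248 against 791, 957, 1036 and 770, and was not called either (0.27, adjusted p = 0.221). In both, the second bigenic mouse was the lowest of its group. Without that library the log2 fold change was 0.55 for Rplp1 (adjusted p = 0.00264) and 0.37 for Rplp2 (adjusted p = 0.0496).

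Rpl4 and Rpl8 gave the largest totals of the large subunit genes that rose. Rpl4 (chromosome 9, 64021194 to 64026369, + strand), part of the wall of the tunnel through which the new peptide leaves, had 8624, 12024, 8754 and 8548 normalized counts in bigenic mice and 6191, 6132, 6531 and 6411 in nontransgenic mice. The second bigenic mouse was far above its group, and the other 3 were close together and still above every nontransgenic mouse. The log2 fold change was 0.57 ± 0.11 (SE, adjusted p = 0.00347), and 0.45 without that library (adjusted p = 7.53e-05). Rpl8 (chromosome 15, 76734501 to 76736748, + strand), close to the centre where peptide bonds form, had 4821, 6345, 5012 and 5344 against 3338, 3594, 3819 and 3753. Its groups were also separate, with a log2 fold change of 0.56 ± 0.10 (SE, adjusted p = 0.00186).

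Rpl6 (chromosome 5, 121654490 to 121659250, + strand) had 369, 486, 351 and 445 normalized counts in bigenic mice and 269, 232, 267 and 247 in nontransgenic mice, without overlap and with a log2 fold change of 0.69 ± 0.12 (SE, adjusted p = 0.00232). Rpl34 (chromosome 3, 130429749 to 130433255, - strand) had 1327, 1369, 1801 and 925 normalized counts in bigenic mice and 1206, 693, 739 and 720 in nontransgenic mice. Here the first nontransgenic mouse lay above the last bigenic mouse, and the fold change was of the same size as for Rpl6 with a wider error (0.69 ± 0.22, SE, adjusted p = 0.0342). Rpl14 (chromosome 9, 120480632 to 120483547, + strand) had a mean of 301 ± 30.3 (SD, n = 4) in bigenic mice against 206 ± 14.8, a log2 fold change of 0.55 ± 0.11 (SE, adjusted p = 0.00471). The call for Rpl34 was lost in 5 of the 8 omissions of a mouse.

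Rpl15 and Rpl27a were the large subunit genes that fell. Rpl15 (chromosome 14, 19100337 to 19103581, - strand), a protein needed for the processing of large subunit RNA, had 879, 678, 776 and 706 normalized counts in bigenic mice and 1136, 1091, 1043 and 1238 in nontransgenic mice. All 4 bigenic values were lower, with means of 760 ± 89.5 (SD, n = 4) and 1127 ± 83.2 and a log2 fold change of -0.57 ± 0.10 (SE, adjusted p = 0.00202). Rpl27a (chromosome 7, 116662661 to 116665881, + strand) had 556, 381, 696 and 635 normalized counts in bigenic mice and 841, 909, 938 and 753 in nontransgenic mice. Its groups were likewise separate, and the second bigenic mouse was the lowest, with a log2 fold change of -0.63 ± 0.17 (SE, adjusted p = 0.0173) that was -0.45 without that library (adjusted p = 0.00356). The call for Rpl27a was lost when either the second or the third of the nontransgenic mice was left out (adjusted p = 0.052 and 0.054).

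**Figure D2:**
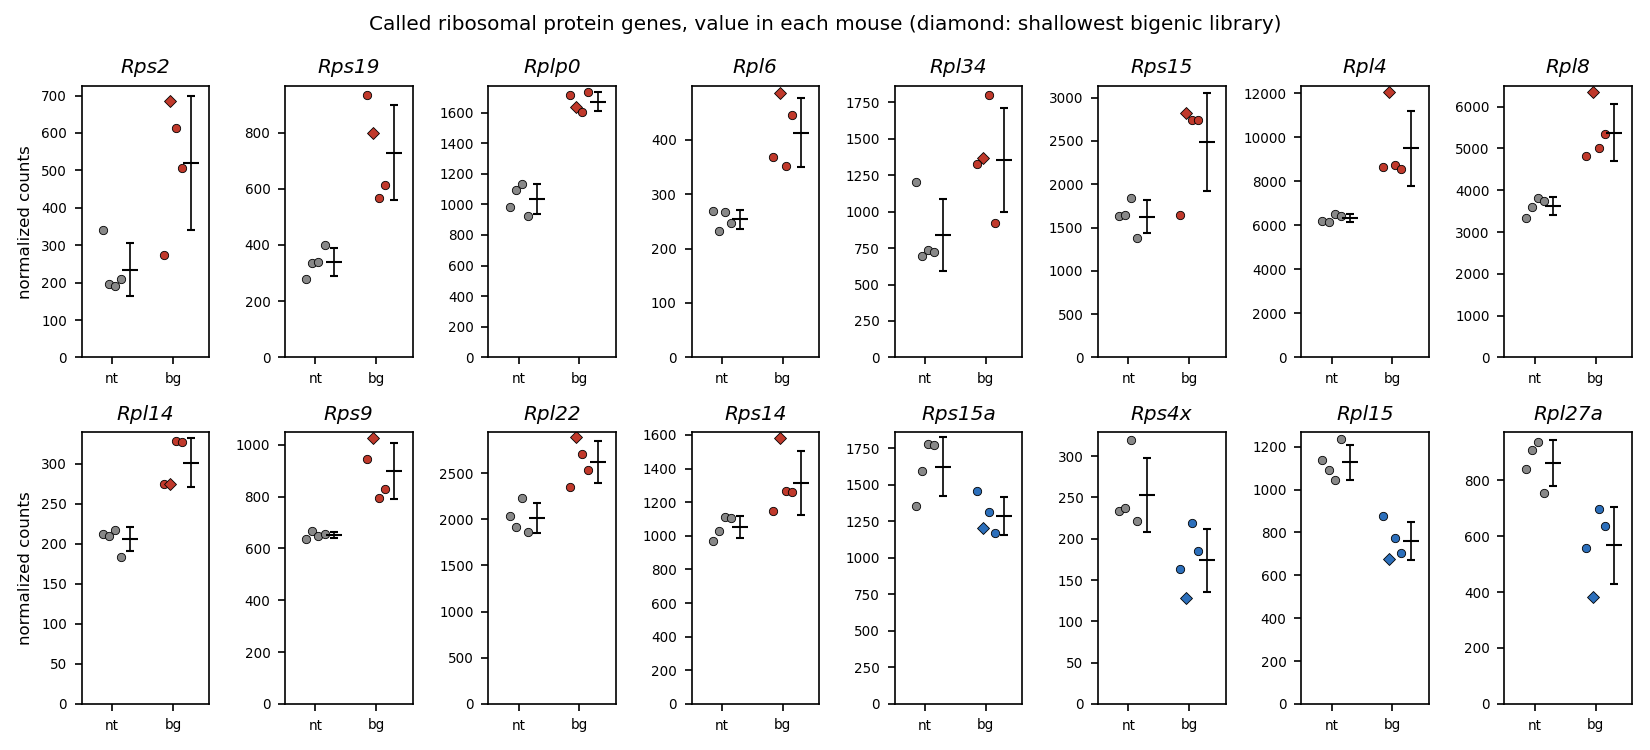
Normalized counts (vertical axes, from 0) of the 16 called ribosomal protein genes in each nontransgenic (nt, grey) and bigenic (bg, red where higher and blue where lower) mouse, with the mean and SD (n = 4) to the right of each group and a diamond for the shallowest bigenic library. The groups overlap in Rps2, Rpl34, Rps15 and Rps15a and are separate in the other 12 genes.

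Paralogs of 1 ribosomal protein could be compared in 2 cases. Rpl22 (chromosome 4, 151699962 to 151706589, + strand), which lies near the exit of the peptide tunnel and is not needed for translation as such, had 2354, 2887, 2702 and 2533 normalized counts in bigenic mice and 2032, 1918, 2229 and 1862 in nontransgenic mice. All bigenic mice were higher, with a log2 fold change of 0.38 ± 0.09 (SE, adjusted p = 0.00906). Its paralog Rpl22l1, which can take its place, had 278, 337, 193 and 181 against 201, 191, 194 and 207. Only 2 of the 4 bigenic mice were above the nontransgenic range, and the gene was not called (log2 fold change 0.27 ± 0.19, SE, adjusted p = 0.292, and 0.11 without the second bigenic mouse). Rpl7 had 441, 227, 591 and 602 normalized counts in bigenic mice and 481, 465, 454 and 421 in nontransgenic mice (log2 fold change -0.07, adjusted p = 0.864, and 0.25 without the second bigenic mouse), and Rpl7l1, a factor of ribosome assembly, had 781, 813, 865 and 897 against 760, 774, 734 and 772 (0.14, adjusted p = 0.162). Rpl7 spread widely between bigenic mice, whereas the 4 bigenic values of Rpl7l1 lay just above its nontransgenic values without passing the test. Rps19bp1 had 469, 682, 397 and 365 normalized counts in bigenic mice and 354, 363, 340 and 377 in nontransgenic mice (log2 fold change 0.37, adjusted p = 0.118, and 0.19 without the second bigenic mouse).

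Of 21 listed genes that are mutated in Diamond-Blackfan anaemia, a failure of red cell production caused by loss of 1 copy of a ribosomal protein gene, 11 were measured. Rps19 and Rpl8 were higher, Rpl15 and Rps15a were lower, and 7 were not called (median log2 fold change 0.11). That is 18.2% in each direction, near the 20.5% higher and 15.4% lower of all genes tested. Of these 7, Rpl18 came closest to the threshold, with 260, 393, 305 and 297 normalized counts in bigenic mice and 196, 247, 246 and 252 in nontransgenic mice. Its groups did not overlap (log2 fold change 0.40 ± 0.14, SE, adjusted p = 0.0513), but the gene overlaps Sphk2 on the opposite strand, and since no source says that reads were assigned by strand, the 2 genes cannot be told apart where they overlap. Rpl5, which with Rpl11 and 5S RNA forms the complex that binds MDM2, had 371, 308, 468 and 358 against 373, 327, 356 and 268 (log2 fold change 0.18, adjusted p = 0.366, and 0.27 without the second bigenic mouse) and overlaps Fam69a in the same way. Rps24 had 1043, 807, 1190 and 1087 normalized counts in bigenic mice against 1159, 1158, 1268 and 1190 in nontransgenic mice, and Rps20 had 489, 314, 665 and 544 against 558, 563, 626 and 481. Neither was called (log2 fold changes -0.22 and -0.19), and in both the second bigenic mouse was the lowest of all 8. Without it the log2 fold changes were -0.11 and 0.02.

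The same library decided the call for the other 3 genes of that list. Rpl26 had 659, 256, 728 and 732 normalized counts in bigenic mice and 468, 483, 483 and 477 in nontransgenic mice. Rpl35a had 305, 74, 300 and 242 against 193, 185, 196 and 189. Rps26 had 509, 242, 448 and 472 against 319, 368, 410 and 403. In each gene 3 bigenic mice were above every nontransgenic mouse and the second was below every one. Their log2 fold changes were 0.20, 0.08 and 0.11 with all 8 mice, and 0.56, 0.56 and 0.35 without the second bigenic mouse (adjusted p = 0.000105, 0.00216 and 0.0159). For Rpl35a, the estimate was negative when any other bigenic mouse was left out instead.

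Over all ribosomal protein genes, leaving out that library gave 20 higher and 4 lower of the 43 that still passed the filter on low values, that is 46.5% and 9.30%, where 25.3% of all genes were higher and 20.3% lower in the same fit. The 8 genes added were Rpl26, Rpl30, Rpl35a, Rpl7a, Rplp1, Rplp2, Rps21 and Rps26, and no call was lost. Of these, Rpl35a had passed the filter on low values through the bigenic mice only. Among the 41 genes that reached 10 RPM in both groups, 19 were higher without that library. Array weights of limma, which lower the weight of more variable libraries, gave 26 higher and 4 lower of the 44 genes, where 34.1% of all genes were higher and 26.9% lower. In 17 of the 44 genes the other 3 bigenic mice all lay above every nontransgenic mouse (38.6%, or 16 of the 41 that reached 10 RPM in both groups), compared with 27.1% of all genes tested. Rps21, a small protein of the small subunit, had 1003, 360, 740 and 879 normalized counts in bigenic mice and 482, 495, 515 and 588 in nontransgenic mice, and Rpl7a, which binds the large subunit RNA, had 422, 199, 558 and 636 against 372, 343, 390 and 288. Both showed the same split of 3 high bigenic mice and 1 low one, and their log2 fold changes went from 0.42 and 0.26 to 0.74 and 0.62 without the low one. Whether the low values belong to that mouse or to its library cannot be told apart with 1 library per mouse.

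**Figure D3:**
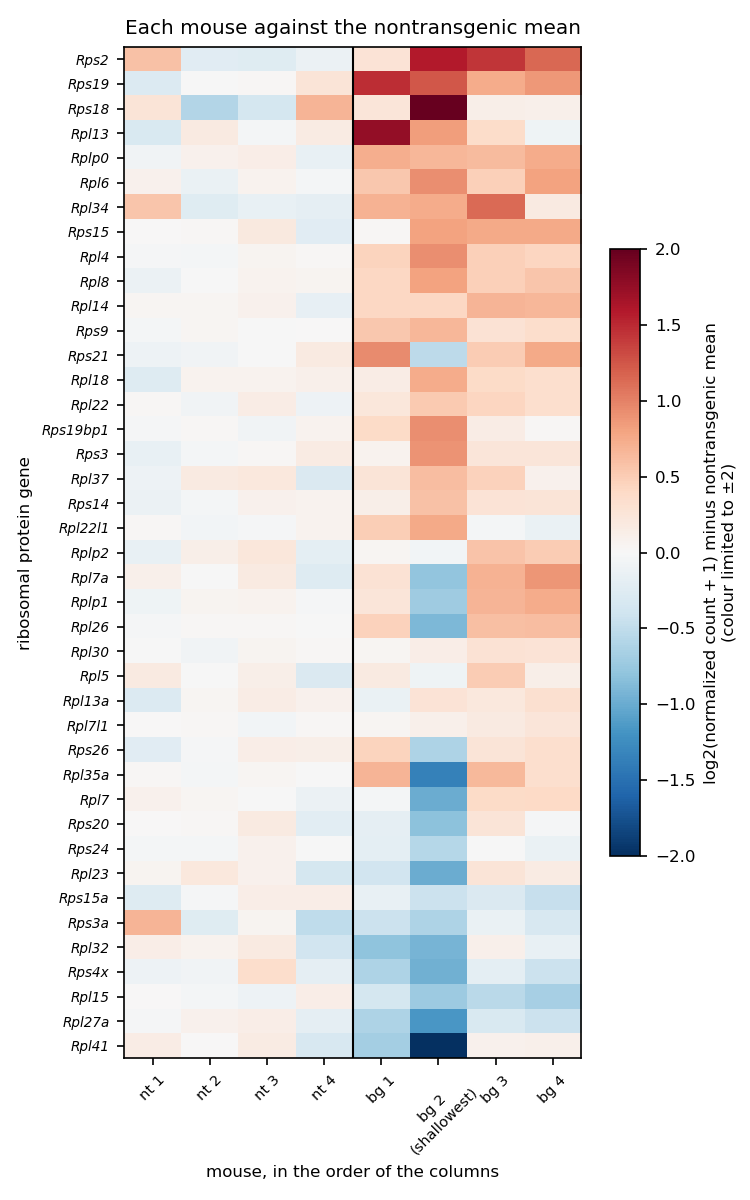
Difference of log2(normalized count + 1) from the mean of the nontransgenic mice (colour, limited to ±2) for 41 of the 44 ribosomal protein genes (vertical axis, ordered by fold change) in the 4 nontransgenic (nt) and 4 bigenic (bg) mice in column order. The second bigenic mouse, the shallowest library, is the lowest bigenic mouse in 18 of these genes and the highest in 14.

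The same library was the high one in other genes. Rps18, a protein of the head of the small subunit, had 515, 3154, 471 and 465 normalized counts in bigenic mice and 519, 287, 341 and 693 in nontransgenic mice, so a single library made its log2 fold change of 0.83 (adjusted p = 0.281), which was 0.16 without it. Rps3, which lies near the mRNA entry, had 3714, 6585, 4162 and 4147 against 3171, 3413, 3581 and 3955. Without the second bigenic mouse its log2 fold change went from 0.37 to 0.19, and it was not called in either fit. Rpl13 differed in another way, with 634, 333, 239 and 175 normalized counts in bigenic mice and 150, 211, 181 and 209 in nontransgenic mice, so its log2 fold change of 0.72 (adjusted p = 0.117) came mainly from the first bigenic mouse. Rpl41, which encodes the shortest of the ribosomal proteins, had 250, 95, 426 and 427 against 443, 403, 446 and 319 (log2 fold change -0.64, adjusted p = 0.251), which was -0.16 without the second bigenic mouse. Of further genes that were not called in either fit, Rpl13a, Rpl23, Rpl32, Rpl37 and Rps3a had log2 fold changes between -0.45 and 0.36. Rpl37 fell under the filter once that library was left out and has only the fit with all mice, while Rpl23 went from -0.24 to 0.01 and Rpl32 from -0.45 to -0.28.

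As a share of all normalized counts, the 44 genes made up 0.241, 0.272, 0.257 and 0.250% in bigenic mice and 0.195, 0.202, 0.210 and 0.198% in nontransgenic mice. Each bigenic mouse was above each nontransgenic mouse, and the means were 0.255 ± 0.0131% (SD, n = 4) and 0.201 ± 0.00654%, a ratio of 1.27. The 3 genes with the highest counts, Rpl4, Rpl8 and Rps3, held 34.6% of the counts. Without them the shares were 0.162 ± 0.00677% and 0.137 ± 0.00532%, a ratio of 1.19. These shares are given without a test, and reads that map to several places are not in them.

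**Figure D4:**
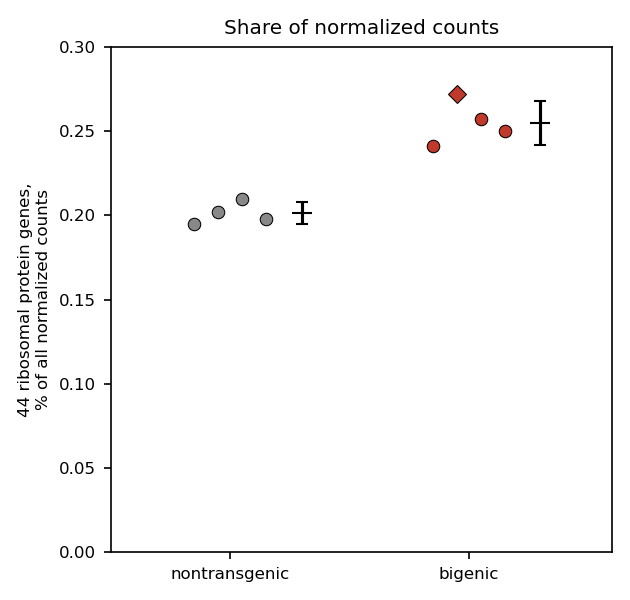
Share of all normalized counts (vertical axis, %) on the 44 ribosomal protein genes in each mouse by group, with the mean and SD (n = 4) to the right and a diamond for the shallowest bigenic library. Bigenic mice lie between 0.241 and 0.272% and nontransgenic mice between 0.195 and 0.210%.

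Which part of a gene could be counted differed strongly between ribosomal protein genes. Of all windows of 50 bases (the read length) in the exons of each gene, a median of 58.5% occurred once in the mm9 genome over the 43 genes with an annotation, with a range from 11.5% (Rpl7a) to 100% (Rps19bp1 among others). Fewer than 50% were unique in 15 of these 43 genes (34.9%), against 1.67% of 10258 tested genes, whose median was 100%. Windows that cross from exon to exon are not in these percentages. As a share of all 50-base windows of the spliced transcript, the unique windows within exons were fewer. For example, they were 24.1% in Rps21 (83.0% within exons), 56.0% in Rpl4 (82.3%) and 81.2% in Rps19bp1 (100%). The levels per kilobase of exon therefore compare what was countable and not the amount of mRNA. By mean normalized counts per kilobase over all 8 mice, Rpl4 was the highest (5557), followed by Rpl8 (5224), Rpl22 (4883) and Rps15 (4113), and Rpl37 (191), Rpl5 (173), Rpl23 (171), Rps20 (143) and Rpl18 (91.9) were the lowest, a range of 60.5-fold. These levels also depend on the exon length of the 1 transcript used per gene. In Rps20 and Rpl18, 93.5% and 88.2% of windows were unique, but the exons were 3706 and 2987 bases long, against a median of 862 over the 43 genes. The exon length was 2045 bases for Rpl5, 1059 for Rpl23 and 867 for Rpl37. In the nontransgenic mice the level per kilobase of Rpl4 was 4442 ± 131 (SD, n = 4). That of Rpl8 was 4206 ± 248 and that of Rpl22 4241 ± 342, and these ranges overlap. All genes were measured in the same mice, and their levels were not compared within each mouse. At the low end the nontransgenic level per kilobase was 168 ± 27.6 for Rpl37, 162 ± 22.5 for Rpl5, 181 ± 28.3 for Rpl23 and 150 ± 16.0 for Rps20, which overlap as well, and 78.8 ± 8.80 for Rpl18, below the others. In single mice, Rpl37 had 173, 221, 199 and 153 normalized counts in the bigenic group and 134, 163, 167 and 117 in the nontransgenic group, and Rpl23 had 145, 95, 226 and 212 against 198, 219, 201 and 149. The groups overlapped in both genes.

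In the 1 annotated transcript used per gene, nearly all countable windows of some genes lay outside the coding sequence. Whether reads were counted on exactly these exons was not checked. Fewer than 10% of the unique windows touched coding sequence in 11 genes, among them Rpl15 (0%), Rpl27a (1.61%) and Rps15a (2.00%), that is 3 of the 4 genes called lower, together with Rps19 (4.62%), which was higher. These 11 genes comprised 1 higher, 3 lower and 7 not called, and their median log2 fold change was -0.19, or 0.02 without the shallowest library. In the 12 genes with 10 to 50%, 2 were higher and none was lower by limma at an adjusted p of 0.05 (median 0.28, and 0.20 without the shallowest library). In the 20 genes with 50% or more, 9 were higher and 1, Rps4x, was lower (median 0.29, and 0.42 without the shallowest library). These limits of 10% and 50% were set with the values in view, and no test was made. The median GC content of the classes was 46.4% in the first, 53.8% in the second and 52.6% in the last. The 4 genes called lower had GC contents between 43.2 and 48.5%, and the genes called higher between 47.3 and 58.2%. Over the 43 genes Spearman's rho between GC content and log2 fold change was 0.58, and over 10297 tested genes it was 0.22. Without the shallowest library it was 0.50 over 42 genes and 0.11 over 10195. The log2 difference of that library from the other bigenic mice also went with GC content. Its rho was 0.32 over the 43 genes and 0.42 over the 10297. With the percentage of unique windows its rho was 0.34 and 0.13. These points share the same 8 libraries, so the values are descriptions. With a trend on GC content and exon length removed from each mouse, 13 genes were higher and 3 lower, where 20.1% and 18.1% of all genes were called. The part of GC content or of the countable region in these differences was not tested beyond that fit.

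**Figure D5:**
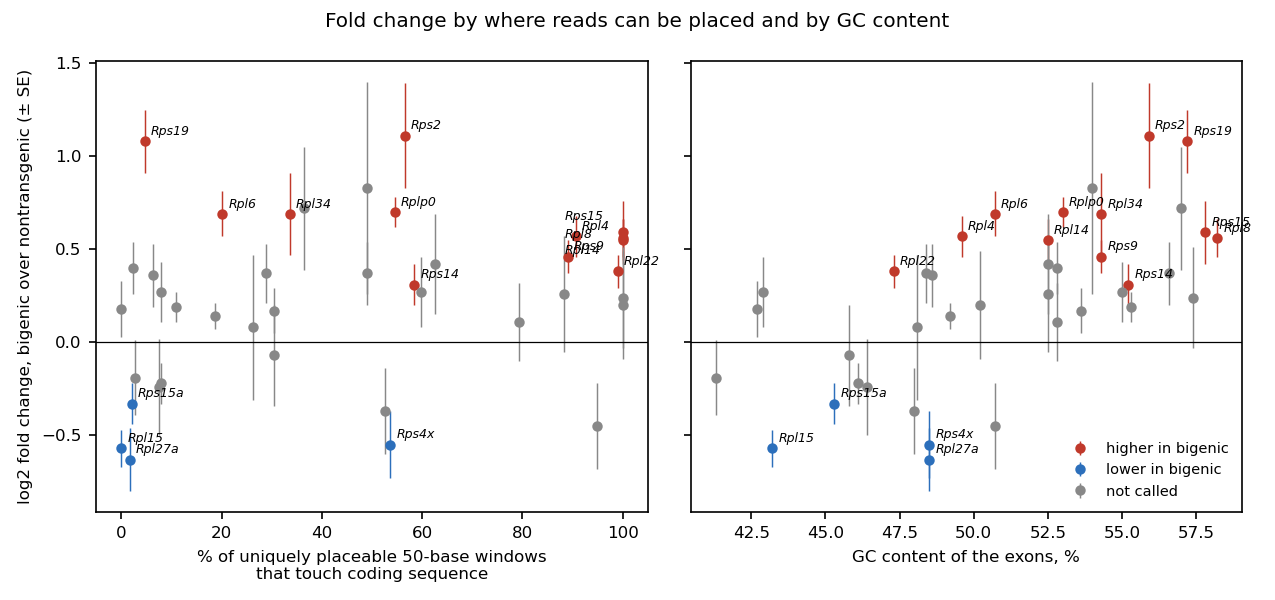
Log2 fold change (bigenic over nontransgenic, ± SE, vertical axes) of 40 annotated ribosomal protein genes against the percentage of uniquely placeable 50-base windows that touch coding sequence (left) and against the GC content of the exons in percent (right), coloured by call. Rpl15, Rpl27a and Rps15a lie at 2.00% coding or less, and the 4 genes called lower lie at 48.5% GC or less.

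Genes that work with the ribosomal proteins were read from fixed lists in the same fit. Their counts stand beside the 20.5% higher and 15.4% lower of all genes tested. Of 76 factors of ribosome assembly or ribosomal RNA transcription, 31 were higher (40.8%) and 2 lower (2.63%), with a median log2 fold change of 0.31. Mdn1, an ATPase that removes assembly factors from the large subunit, was higher by 1.14 ± 0.11 (SE, adjusted p = 6.81e-05), Riok2, a kinase of late small subunit maturation, by 1.03, and Nol8, a nucleolar protein, by 0.81, all on the log2 scale. Of 15 chaperones and importers of ribosomal proteins, 3 were higher (20.0%) and 2 lower (13.3%). Grwd1, a histone-binding protein that associates with nascent RPL3, rose by 0.84 and Ipo7, an importer, by 0.46, while Nap1l1, a histone chaperone, had a log2 fold change of -0.61. Of 68 mitochondrial ribosomal protein genes, which serve the separate ribosome of mitochondria, 14 were higher (20.6%) and 3 lower (4.41%) with a median of 0.06. The smallest adjusted p-values there belonged to Mrpl50 (0.47), Mrpl54 (0.71) and Mrpl9 (0.42). Gnb2l1, which encodes the small subunit protein RACK1 and has no Rps name, was not called (0.16, adjusted p = 0.323).

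Other mRNAs of the translation machinery were mixed too. Among 15 further TOP mRNAs, 3 were higher (20.0%) and 1 was lower (6.67%), with a median log2 fold change of 0.07. Pabpc1, the poly(A)-binding protein, rose with 7618, 10467, 6237 and 6276 normalized counts in bigenic mice (log2 fold change 0.76 ± 0.15, SE, adjusted p = 0.00407), and Eif3h, an initiation factor subunit, rose by 0.34. Eef1a1, the elongation factor that carries tRNA to the ribosome, fell, with a log2 fold change of -0.82 ± 0.21 (SE, adjusted p = 0.0136). Of 18 genes of mTORC1 and of TOP mRNA binding, 7 were higher (38.9%) and 3 lower (16.7%). Larp1, which binds the TOP motif, was higher by 0.73 (adjusted p = 0.00109), Eif4ebp2, a repressor of cap binding, by 0.58 and Larp4, a poly(A)-associated relative, by 0.44. Of 53 genes with symbols that start with Eif and a number, most of them initiation factors, 15 were higher (28.3%) and 4 lower (7.55%), with a median of 0.14. The symbol also takes in Eif4ebp2, which thus counts in both lists. The smallest adjusted p-values among the others were those of Eif5a2 (0.82) and Eif3b (0.57). Of 7 genes of the p53 response that free ribosomal proteins can start, Sesn2 (1.04) and Cdkn1a (0.38) were higher (28.6% of the list) and Ccng1 was lower (-0.28, 14.3%). Sesn2 had 352, 447, 243 and 331 normalized counts in bigenic mice and 165, 148, 178 and 163 in nontransgenic mice. It passed the filter on low values through the bigenic mice only, so its call is a description only.

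Markers of cell types were read from the same fit, beside the same shares of all genes. Of 12 neuron markers 2 were higher (16.7%) and 5 lower (41.7%), of 6 interneuron markers 2 were lower (33.3%), of 9 astrocyte markers 4 were lower (44.4%), of 8 microglia markers 5 were lower (62.5%), of 6 endothelial markers 1 was lower (16.7%), and of 9 oligodendrocyte markers 1 was higher (11.1%). The summed markers did not overlap between groups for astrocytes, microglia and interneurons, and were lower in bigenic mice in all 3. Astrocyte sums were 124322 to 144488 normalized counts in bigenic mice and 152280 to 163643 in nontransgenic mice. Microglia sums were 4840 to 6379 against 6608 to 7811, and interneuron sums 15136 to 15723 against 16917 to 18678. Most of the astrocyte sum was Slc1a2 (78858 to 101564 against 101337 to 111078). The log2 fold changes of the astrocyte markers Gfap (0.04) and S100b (0.19) were positive, and the other 7 were negative. Groups were separate in 39.0% of all single genes tested, and no such share was computed for sums. The sums overlapped for neurons (196463 to 271598 against 230110 to 248365), oligodendrocytes (65912 to 87436 against 66663 to 83548) and endothelial cells (3585 to 4261 against 4025 to 5117). Choroid plexus markers, which mark a secretory tissue of the ventricles, were higher in 4 of the 5 tested out of 10 listed (median log2 fold change 2.40). Their sum ranged from 14101 to 29169 normalized counts in bigenic mice against 6544 to 8183 in nontransgenic mice. Of the markers called higher, F5, Kl and Clic6 passed the filter on low values through the bigenic mice only, so their calls are descriptions only. Ttr (log2 fold change 4.34) was higher and Enpp2 (0.34) was not called, and both reached 10 RPM in each group. None of the 5 red blood cell genes listed was found by symbol among the genes tested. Whether low values or missing symbols were the reason was not checked. The part of these markers in the changes of ribosomal protein genes was not tested.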

How the data were processed

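Poly(A)+ RNA of right cerebral cortex (4 bigenic mice, 4 nontransgenic mice) was sequenced as 50-base single-end reads. The authors trimmed adaptors (cutadapt), mapped reads to mm9 with Bowtie 0.12.7 allowing 2 mismatches, kept reads that mapped uniquely, counted them on exons with bedtools and summed exons into genes. The deposited table holds a signal per transcript, as normalized counts scaled per mouse and rounded, and its columns name the group of each of the 8 mice but no replicate number of the labels. Its scaling is not given in the sources used here. A second deposited table gave gene symbols; its fold changes and p-values, which hold the authors' own comparison, were not used. What 1 read is worth was estimated from the missing whole numbers of each column, tested on simulated columns, and gave 10.6 to 31.9 M reads on genes; it exceeded 1 in only 3 columns, so count tests were not run, and 3 reads equal 1.94 to 6.20 normalized counts.

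A gene was tested if it reached 10 RPM, relative to the column total, in 1 or more mice (10588 genes). Values were compared as log2(value + 1) using lmFit and eBayes(trend) of limma 3.58.1 (R 4.3.3), with Benjamini-Hochberg adjustment over all genes tested and a threshold of 0.05; the fit was tested on simulated data. Fold changes on this scale understate changes of low genes. The ribosomal protein genes and the lists of other genes were chosen with earlier results of these data known, so they are no independent evidence. Values in every mouse are given for the 8 largest rises and falls past the threshold, role groups, paralog pairs and the 5 highest and 5 lowest levels per kilobase, and the 3 smallest adjusted p-values name genes of each other list; further genes were named after their values were seen. For 3 of the 44 genes, which count in totals and medians, single values are not reported here. Positions, lengths, GC content and unique 50-base windows come from GENCODE on mm9 (43 of 44 genes matched; Rpl41 did not), with 1 transcript per gene, and start windows from RefSeq on GRCm38.p6 (33 of 44 matched). The minimum run of 8 pyrimidines was set with windows in view. Alternatives were other pseudocounts, filters, scalings, weights and thresholds, removal of a trend on GC content and length, and leaving out each mouse.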

Additional observations from a re-analysis of the deposited data

Results flagged for a closer look

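A total of 9 of 82 groups of 4 mice (41 genes in 2 groups) held a mouse whose gap to the nearest other mouse, divided by the range of the group, passed Dixon's critical value at 95%; chance gives about 1 in 20. Of these, 5 were bigenic groups, and in 4 of them the mouse was the second, the shallowest library. It was the highest in Rps18 (3154 normalized counts), Rpl4 (12024) and Rps3 (6585), and the lowest in Rpl26 (256). The other was the first bigenic mouse, the lowest in Rps15 (1648). In the nontransgenic mice the first was the highest in Rpl34 (1206) and Rps2 (340) and the lowest in Rpl18 (196), and the third was the highest in Rps4x (319). Rpl4 kept its call without the second bigenic mouse, and Rpl26 was not called with all mice weighted equally but was called without it.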

How the results depend on the processing

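The calls of 10 genes (Rplp0, Rps19, Rps2, Rpl4, Rpl6, Rpl8, Rpl14, Rpl15, Rpl22 and Rps9) held at the 0.05 threshold under every alternative in which they were tested, and no called gene turned its direction. Of 12 higher and 4 lower genes, array weights gave 26 higher (and called 34.1% of all genes higher), no filter on low values gave 2 lower, and an adjusted p below 0.01 gave 8 higher and 1 lower. Leaving out each mouse gave 9 to 20 higher, with 20 when the second bigenic mouse was left out. In that fit 25.3% of all genes were higher and 20.3% lower. The lower genes numbered 1 to 4. There was 1 when the second or the third nontransgenic mouse was left out, and 2 without the fourth bigenic mouse. The median log2 fold change ranged from 0.16 to 0.27. Shares of all genes called are given only for array weights, the GC and length fit and the fit without that library. The other counts in this section have no such share beside them. Genes that were not called turned sign with array weights: Rpl22l1 (-0.01), Rpl23 (0.06), Rpl7 (0.33, then called with an adjusted p = 0.00857), and Rps20 (0.02); removing the GC and length trend turned Rpl7 (0.03). Leaving out a mouse turned Rpl23 (-0.41 to 0.01), Rpl35a (-0.12 to 0.56), Rpl7 (-0.22 to 0.25), Rps20 (-0.34 to 0.02) and Rps26 (-0.01 to 0.35). The cause was not tested. A filter of 10 RPM in every mouse left 33 genes, with 10 higher and 3 lower. No paired analysis was possible because the columns carry no replicate numbers of the labels.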
